A study of Homo sapiens with 30 samples.

Results

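The constitutive proteasome subunit genes were followed through depletion of each subunit of the negative elongation factor NELF in T47D breast cancer cells. They were taken as every gene whose single platform symbol begins with PSMA, PSMB, PSMC, PSMD or PSME and a number, without the immunoproteasome genes PSMB8, PSMB9 and PSMB10. This gave 39 genes. Of these, 31 had a gene-level transcript cluster of their own among 22011 clusters, and 8 (PSMA6, PSMA8, PSMC1, PSMC5, PSMC6, PSMD7, PSMD13 and PSMD14) were read out by their exon-level probe sets, of which the median was taken, among 16941 symbols measured that way. A transcript cluster is the array's gene-level feature, and a probe set is its exon-level feature. PSMB11 was not analysed here. Not all 39 are constitutive subunits of the particle: PSMD5, PSMD9 and PSMD10 encode chaperones that assemble the base, PSME1 to PSME4 encode activators that dock on the core, and PSMA8 encodes a testis form of an alpha subunit.

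The proteasome is the barrel-shaped protease that degrades proteins tagged with ubiquitin. Its 20S core is built of alpha rings, which gate the entry, and beta rings, of which PSMB5, PSMB6 and PSMB7 carry the active sites. The 19S regulatory cap has a base, whose ATPases (the PSMC genes) unfold the substrate, and a lid, whose subunit PSMD14 removes the ubiquitin chain. In mammalian cells the transcription factor NFE2L1 raises proteasome genes together through antioxidant response elements in their promoters when proteasome activity is short.

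Promoter sequence was held by RefSeq for 34 of the 39 genes, in 40 windows of GRCh38.p14. The 250 bases before the transcription start were searched on both strands for the core of the antioxidant response element (TGACNNNGC), for the CCAAT box (CCAAT) and for the GC box (GGGCGG). The antioxidant response element core was in 10 of the 40 windows (25%), against 10.9% of all 35116 windows of the same length and 11.2% of the 22199 windows of protein-coding genes. The CCAAT box was in 16 of the 40 (40%), against 32.0% of all windows and 32.7% of those of protein-coding genes, and the GC box was in 26 (65%), against 42.6% of all windows and 53.7% of those of protein-coding genes. A match is a run of letters and does not show a binding site. Below are the windows of 3 genes on which the tests turn, PSMC3, PSMD8 and PSMD13, and of PSMD3, which lay above control where most of the others lay below. Capitals mark matches to any of the 3 motifs on either strand, so that ATTGG is a CCAAT box and CCGCCC a GC box on the other strand, and no matches overlap in these windows. Each is written 5′ to 3′ on the strand of the gene, upstream of the start. They lie at chr11:47426440-47426689 (minus strand) for PSMC3, chr19:38374321-38374570 (plus strand) for PSMD8, chr11:236726-236975 (plus strand) for PSMD13 and chr17:39980557-39980806 (plus strand) for PSMD3.
PSMC3: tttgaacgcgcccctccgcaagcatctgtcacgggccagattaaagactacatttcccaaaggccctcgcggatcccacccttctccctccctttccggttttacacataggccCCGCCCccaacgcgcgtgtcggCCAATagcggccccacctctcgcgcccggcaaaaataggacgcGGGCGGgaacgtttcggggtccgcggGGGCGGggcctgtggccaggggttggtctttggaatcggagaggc
PSMD8: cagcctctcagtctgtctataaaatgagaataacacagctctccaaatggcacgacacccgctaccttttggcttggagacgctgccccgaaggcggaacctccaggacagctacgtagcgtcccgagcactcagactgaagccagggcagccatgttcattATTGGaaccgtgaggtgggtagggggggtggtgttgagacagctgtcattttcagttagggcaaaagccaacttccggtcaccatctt
PSMD13: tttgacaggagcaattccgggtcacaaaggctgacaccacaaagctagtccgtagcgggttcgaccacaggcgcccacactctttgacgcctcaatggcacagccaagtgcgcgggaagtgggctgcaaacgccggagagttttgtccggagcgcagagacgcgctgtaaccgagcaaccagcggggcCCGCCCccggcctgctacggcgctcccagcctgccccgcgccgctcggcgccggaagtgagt
PSMD3: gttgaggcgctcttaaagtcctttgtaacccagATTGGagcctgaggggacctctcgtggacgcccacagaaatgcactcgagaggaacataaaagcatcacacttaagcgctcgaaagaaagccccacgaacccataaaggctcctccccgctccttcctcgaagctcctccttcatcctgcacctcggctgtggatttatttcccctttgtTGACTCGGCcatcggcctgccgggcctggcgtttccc
The PSMC3 window held 1 CCAAT box and 3 GC boxes, and that of PSMD8 held 1 CCAAT box. The PSMD13 window held 1 GC box, and that of PSMD3 held 1 antioxidant response element core and 1 CCAAT box.

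T47D is a luminal, hormone receptor-positive breast cancer cell line. Cells received 10 nM siRNA, either against 1 of the 4 NELF subunits (A, B, C or E) or, as control, against luciferase, got new medium at 48 hours and were collected 48 hours after that, with 1 µg of RNA per array. The 5 groups (siNELF-A, siNELF-B, siNELF-C, siNELF-E and control) had 3 exon arrays each, 15 in all. Arrays of one group are technical repeats according to the series text, so a p-value refers to the spread among repeats rather than among cultures, and precision is limited by the number of arrays.

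The targeted gene NELFCD fell to 5.61 to 5.97 on the siNELF-C arrays, against 9.19 to 9.33 on the control arrays (log2 levels; limma adjusted p = 1.67e-05), and NELFE fell to 4.60 to 4.70 on the siNELF-E arrays, against 7.22 to 7.29 (adjusted p = 2.49e-05). NELFA measured 5.39 to 5.92 on the siNELF-A arrays and 6.14 to 6.34 on the control arrays, a log2 change of -0.61 ± 0.215 (SE) that did not pass (adjusted p = 0.176). The gene for NELF-B was not analysed here, so no level checks the siNELF-B label. The siNELF-B arrays were uneven: the mean correlation of replicate 2 was 0.945 with its own group but 0.9845 with the control arrays, and that of replicate 3 with all other arrays was 0.9323. The spread of the clusters, as interquartile range, was 3.57, 4.02 and 3.12 on the siNELF-B arrays and 3.62 to 3.75 with siNELF-C, against 3.95 to 4.12 in control. Results are therefore also given without siNELF-B replicates 2 and 3. All 8 luminal markers (such as KRT8, GATA3 and ESR1) had a mean over all arrays above the 40th percentile of cluster means. ESR1 nevertheless lay lower on every knockdown array (6.12 to 7.18) than on the control arrays (7.63 to 7.72). Also above that percentile were 2 of 2 basal markers measured, 3 of 6 mesenchymal markers (mean log2 levels of 1.74 to 5.77, COL1A1 highest), 2 of 5 leukocyte markers (1.45 for PTPRC to 4.53 for CD68) and 0 of 5 endothelial markers.

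All 31 clusters of proteasome genes also lay above that percentile, a log2 level of 3.90. Most of them measured lower with siNELF-B and siNELF-C than in control, few passed the test, and with siNELF-A most were near the control level. To be called, a cluster had to differ by 1.5-fold or more in limma's model of all 15 arrays, with a Benjamini-Hochberg adjusted p under 0.05 among all clusters. With siNELF-B, 2 of the 31 were called lower (PSMB6 and PSMB7), against 4.19% of all clusters. With siNELF-C, 1 of the 31 (PSMB7) was called lower, against 5.3% of all clusters. With siNELF-E, 2 of the 31 (PSMC3 and PSMD8) were called lower, against 4.04%. With siNELF-A, 0 of the 31 were called lower, against 2.83% of all clusters, and 1 had an unadjusted p below 0.05, where 17.2% of all clusters did. None of the 31 was called higher, where 0.495%, 0.204%, 0.922% and 1.44% of all clusters were with siNELF-A, siNELF-B, siNELF-C and with siNELF-E. Of the 8 genes measured by probe set medians, 0 were called against control in limma's fit, where 2.05%, 3.19%, 4.33% and 3.31% of all genes measured that way were called lower in the same order of knockdowns. An unadjusted p below 0.05 was reached by 4 of the 8 with siNELF-B and by 2 with siNELF-C, where 31% and 23.2% of all such genes reached it.

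With all arrays in the fit, the counts of calls were thus close to those of all clusters. The median of the proteasome genes stood lower than that of all clusters in 3 of the 4 knockdowns. The closeness of the counts did not hold with siNELF-C, nor with siNELF-B as 1 array, once siNELF-B replicates 2 and 3 were left out, as given further below. The median log2 change of the 31 clusters was -0.57 with siNELF-B and -0.52 with siNELF-C, where the median of all clusters was -0.14 and -0.08. With siNELF-E the 31 had a median of -0.16, against -0.02 over all clusters, and with siNELF-A -0.02, against -0.03. Of the 31, 29 had a negative value with siNELF-B (93.5%, against 61.2% of all clusters), 28 with siNELF-C (90.3%, against 56.9%), 23 with siNELF-E (74.2%, against 53.0%) and 18 with siNELF-A (58.1%, against 53.5%). All 4 comparisons share the same 3 control arrays. The arrays hold bulk RNA, so less RNA of a gene per cell and fewer cells that make it cannot be told apart.

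**Figure D1:**
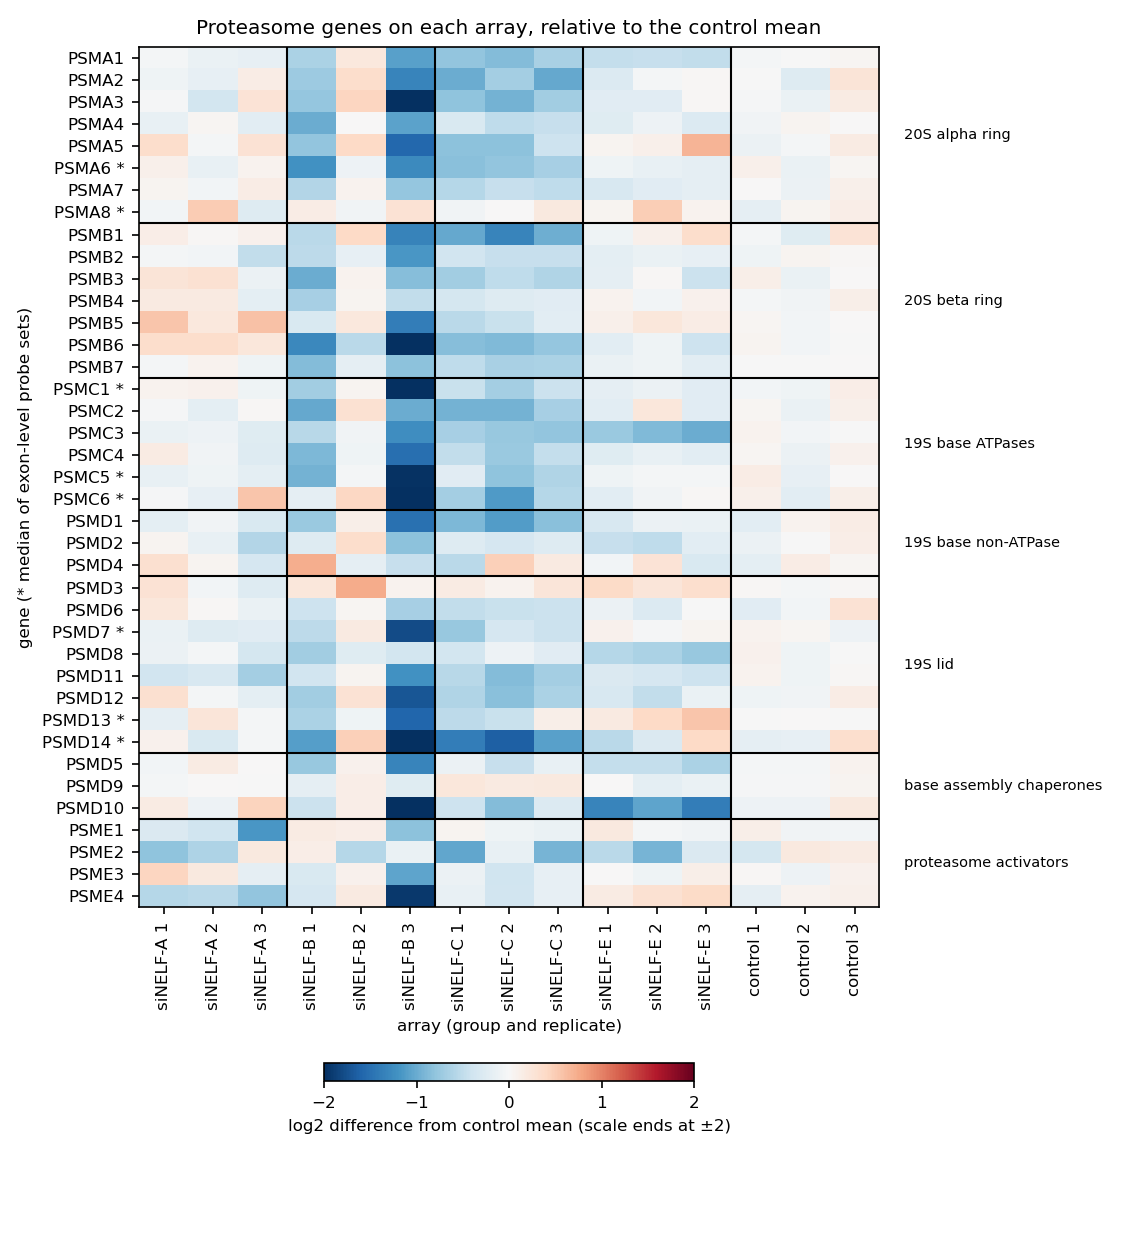
Log2 difference of each of the 39 proteasome genes (down the page, by role) from its control mean on each of the 15 arrays (across, by group and replicate); blue is lower, and stars mark the 8 genes measured as probe set medians. The siNELF-C arrays are blue for most genes on all 3 replicates, siNELF-B replicates 1 and 3 are blue and replicate 2 is not, and the rows of PSMD3 and PSMD9 differ from their neighbours.

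Between arrays, the siNELF-C replicates were alike and the siNELF-B replicates were not. The median difference of the 31 clusters from the control mean was -0.54, -0.51 and -0.46 with siNELF-C, and -0.59, 0.09 and -1.08 with siNELF-B (replicates 1, 2 and 3). It was -0.02, -0.06 and -0.17 on the siNELF-A arrays, -0.21, -0.12 and -0.18 on the siNELF-E arrays, and -0.03, -0.06 and 0.08 on the control arrays. All 3 siNELF-C arrays lay below every control array, and so did all 3 siNELF-E arrays, whereas siNELF-B replicate 2 lay above all 3 control arrays.

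**Figure D2:**
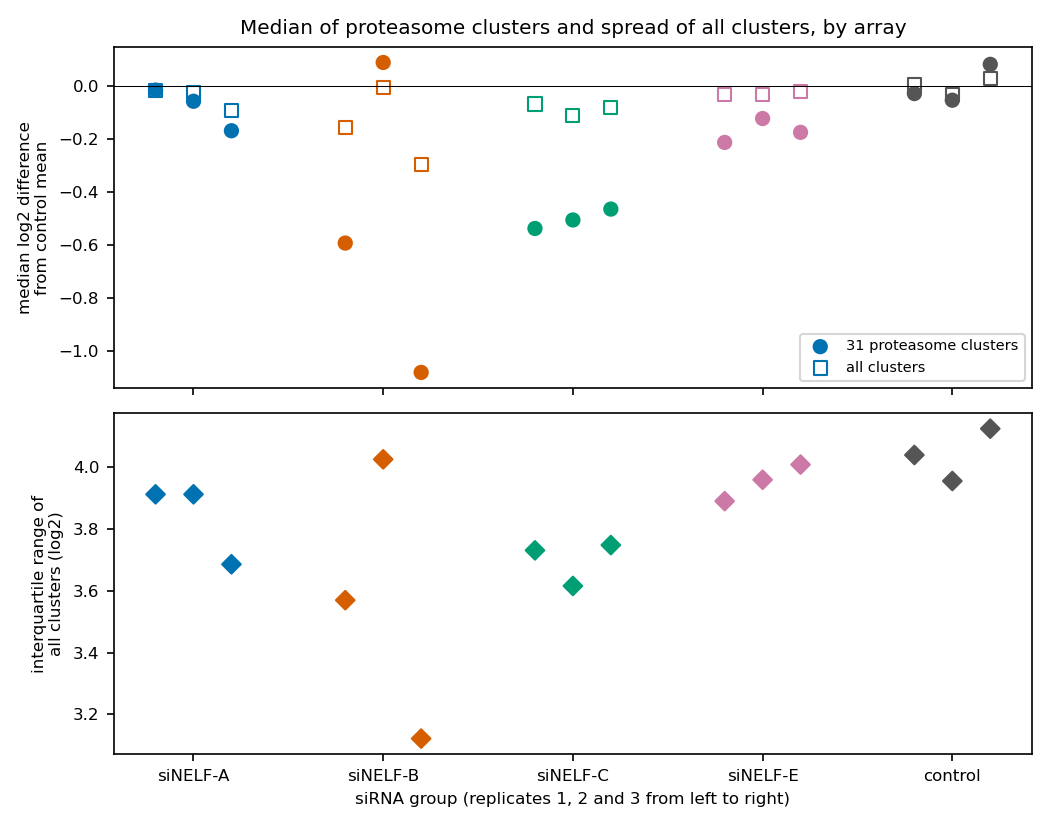
Upper panel: median log2 difference from the control mean over the 31 proteasome clusters (filled circles) and over all 22011 clusters (open squares) on each array, by siRNA group. Lower panel: interquartile range of all clusters on the same arrays; siNELF-B replicate 3 has the lowest range (3.12) and the lowest proteasome median (-1.08).

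Single genes were also compared array by array. With siNELF-C, all 3 arrays lay below all 3 control arrays for 25 of the 31 clusters (80.6%), against 31.3% of all clusters, and for 6 of the 8 genes measured by probe sets, against 32.8% of all genes measured that way. With siNELF-E this was so for 14 of the 31 (45.2%, against 21.1% of all clusters), with siNELF-A for 5 (16.1%, against 22.5%) and with siNELF-B for 5 (16.1%, against 16.6%). Above all control arrays lay PSMB5 and PSMB6 with siNELF-A (12% of all clusters), PSMD3 with siNELF-B (5.57%), PSMD3 and PSMD9 with siNELF-C (15.1%), and PSMB5, PSMD3 and PSME4 with siNELF-E (13.5%), joined there by PSMD13, 1 of the 8 genes measured by probe sets, where 12.5% of all such genes lay above control. No test attaches to these orderings of the arrays.

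The 20S alpha ring, the gate of the core, had 0 of its 8 genes called in any knockdown. With siNELF-C the ring's median log2 change was -0.72, and every alpha gene but PSMA8 lay below control on all arrays. PSMA3 measured 7.55, 7.41 and 7.67 with siNELF-C, against 8.33, 8.22 and 8.52 in control, a change of -0.81 ± 0.497 (SE; limma adjusted p = 0.325). On the same scale PSMA3 was at 7.58, 8.78 and 5.88 on the siNELF-B arrays, the widest spread of any alpha gene. PSMA1 had a change of -0.77 ± 0.234 with siNELF-C (adjusted p = 0.0661) and -0.47 with siNELF-E. PSMA5 differed in sign between knockdowns, with values of -0.69 with siNELF-C and -0.66 with siNELF-B, but 0.20 with siNELF-A and 0.28 with siNELF-E, none of which passed. PSMA8 measured 1.22 to 1.98 on all 15 arrays, below the 40th percentile of cluster means, and no fold is given for it.

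Both genes called with siNELF-B, and the gene called with siNELF-C, belong to the 20S beta ring. Its median log2 change was -0.59 with siNELF-B and -0.60 with siNELF-C, and 0.08 with siNELF-A and -0.15 with siNELF-E. All 7 beta genes measured had negative values with siNELF-B and siNELF-C, and all 7 lay below every control array with siNELF-C.

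PSMB6, the caspase-like active subunit, measured 8.58, 8.58 and 8.46 on the siNELF-A arrays, 6.94, 7.70 and 6.18 on siNELF-B, 7.38, 7.34 and 7.46 on siNELF-C, 8.02, 8.14 and 7.82 on siNELF-E, and 8.28, 8.18 and 8.23 on control. The siNELF-B, siNELF-C and siNELF-E arrays all lay below the control arrays, and the siNELF-A arrays above them. PSMB6 fell by 1.29 ± 0.268 (SE) on the log2 scale with siNELF-B, 2.45-fold (adjusted p = 0.027, limma). With siNELF-C its change was -0.83 (adjusted p = 0.0783) and with siNELF-A 0.31 (adjusted p = 0.598). The call with siNELF-B was lost without siNELF-B replicate 1 (adjusted p = 0.0986) or without any 1 of the control arrays (0.0758 to 0.11). The cluster of PSMB6 rests on 1 probe set, and the gene-level and exon-level tables give the same values for it.

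PSMB7, the trypsin-like active subunit, measured 10.67, 10.79 and 10.63 on the siNELF-A arrays, 9.84, 10.53 and 9.90 on siNELF-B, 10.21, 10.06 and 10.08 on siNELF-C, 10.58, 10.63 and 10.50 on siNELF-E, and 10.71, 10.71 and 10.72 on control. The control arrays lay within 0.01 of each other, and all siNELF-B, siNELF-C and siNELF-E arrays were below them. PSMB7 fell by 0.62 ± 0.159 with siNELF-B (1.54-fold, adjusted p = 0.0461) and by 0.60 ± 0.159 with siNELF-C (1.51-fold, adjusted p = 0.0416, both limma). It was the one proteasome gene called in more than 1 knockdown. When 1 of the 15 arrays was left out at a time, the siNELF-B call was lost in 14 cases (adjusted p up to 0.157) and kept without siNELF-B replicate 2, and the siNELF-C call was lost in 12 (up to 0.141) and kept without any 1 of the siNELF-B arrays. All 10 of its probe sets were lower with siNELF-C and 9 of 10 with siNELF-B.

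PSMB5, the chymotrypsin-like active subunit and the main target of proteasome inhibitor drugs, measured 7.31, 6.96 and 7.34 on the siNELF-A arrays, 6.45, 6.96 and 5.36 on siNELF-B, 6.21, 6.30 and 6.54 on siNELF-C, 6.86, 6.98 and 6.90 on siNELF-E, and 6.80, 6.70 and 6.76 on control. It was above control on all siNELF-A and siNELF-E arrays and below it on all siNELF-C arrays. No change passed (siNELF-A 0.45 ± 0.293, adjusted p = 0.468; siNELF-C -0.40, adjusted p = 0.411).

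PSMB1, a structural beta subunit, measured 8.65, 8.55 and 8.61 on the siNELF-A arrays, 7.98, 8.93 and 7.18 on siNELF-B, 7.495, 7.21 and 7.54 on siNELF-C, 8.44, 8.62 and 8.87 on siNELF-E, and 8.49, 8.29 and 8.79 on control. The siNELF-C arrays stood below every other array except siNELF-B replicate 3, which was lower still, and the siNELF-A and siNELF-E arrays overlapped control. Its change with siNELF-C, -1.11 ± 0.321, was the most negative of the 31 clusters in that knockdown, and missed the threshold (adjusted p = 0.0578). The other structural subunits, PSMB2, PSMB3 and PSMB4, had changes of -0.44, -0.60 and -0.28 with siNELF-C, none called.

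**Figure D3:**
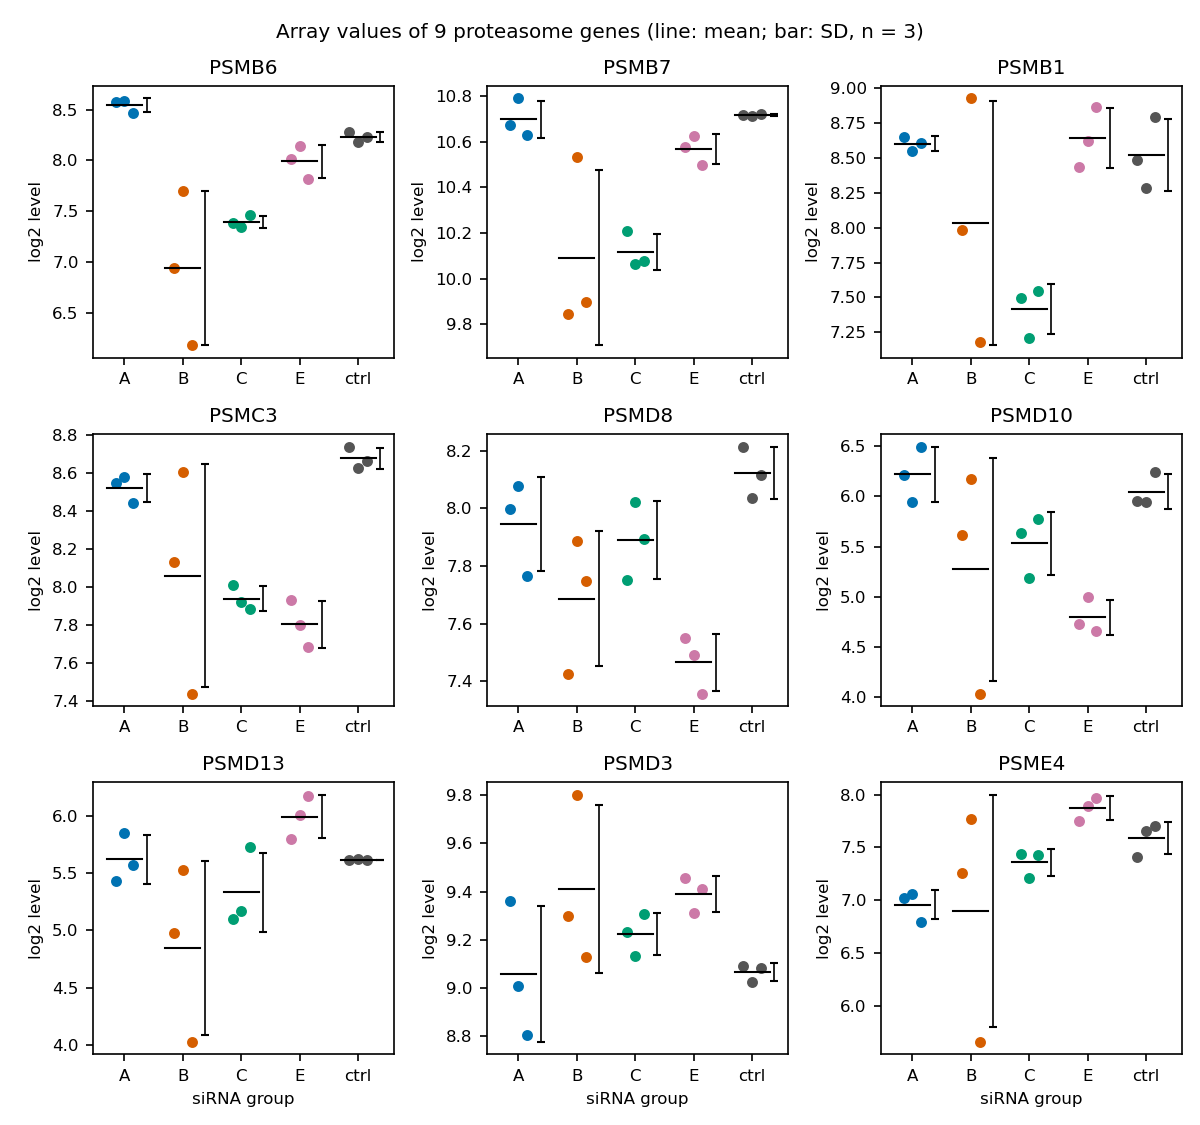
Log2 level of 9 proteasome genes on each array (points), with the group mean (line) and SD (bar, n = 3), for the knockdowns of NELF-A, B, C and E and the control siRNA (ctrl). PSMC3, PSMD8 and PSMD10 are lowest with siNELF-E among groups with close repeats, PSMB1 is low with siNELF-C, and the siNELF-B points are spread widest; each panel has its own vertical range.

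In the 19S base, the 6 ATPases had a median change of -0.65 with siNELF-C, and all 6 lay below every control array there. With siNELF-B the median was -0.83, with 1 of the 6 (PSMC3) below control on all arrays, and with siNELF-A it was -0.06. PSMC3 measured 8.55, 8.58 and 8.44 on the siNELF-A arrays, 8.13, 8.61 and 7.44 on siNELF-B, 8.01, 7.92 and 7.88 on siNELF-C, 7.93, 7.80 and 7.68 on siNELF-E, and 8.74, 8.63 and 8.66 on control. It was below control on all arrays of all 4 knockdowns, by the widest margin with siNELF-E. PSMC3 fell by 0.87 ± 0.217 with siNELF-E (1.83-fold, limma adjusted p = 0.0319), and its changes of -0.74 with siNELF-C (adjusted p = 0.0598) and -0.62 with siNELF-B (adjusted p = 0.0912) missed the threshold. The siNELF-E call was lost without any 1 of the siNELF-E or control arrays (adjusted p = 0.0689 to 0.119, with changes of -0.94 to -0.81). The other 5 ATPases had changes between -0.20 and -0.05 with siNELF-E (PSMC4 -0.20, PSMC1 -0.17, PSMC6 -0.09, PSMC2 -0.07, PSMC5 -0.05).

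Of the base subunits that are not ATPases, the scaffold PSMD1 had a change of -0.95 ± 0.291 with siNELF-C (adjusted p = 0.068) and the scaffold PSMD2 one of -0.28, and neither was called in any knockdown. PSMD4, a ubiquitin receptor, measured 4.98, 4.72 and 4.34 on the siNELF-A arrays, 5.40, 4.50 and 4.20 on siNELF-B, 4.13, 5.15 and 4.85 on siNELF-C, 4.61, 4.94 and 4.36 on siNELF-E, and 4.48, 4.82 and 4.71 on control. All its groups overlapped, and its changes were -0.03 to 0.04. PSMD4 has a near-identical retrogene copy in PIPSL, and a further cluster listed under PIPSL, PIP5K1A and PSMD4 together was not used, so its values are uncertain.

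In the lid, members lay on both sides of control. PSMD8, a structural lid subunit, measured 7.998, 8.08 and 7.76 on the siNELF-A arrays, 7.43, 7.89 and 7.75 on siNELF-B, 7.75, 8.02 and 7.89 on siNELF-C, 7.55, 7.49 and 7.36 on siNELF-E, and 8.21, 8.04 and 8.12 on control. The siNELF-E arrays lay below all others except siNELF-B replicate 1, which fell among them. PSMD8 fell by 0.66 ± 0.143 with siNELF-E (1.57-fold, limma adjusted p = 0.0154), and it passed in no other knockdown (siNELF-B -0.43, adjusted p = 0.0793). The call was lost without siNELF-E replicate 2 or 3 or without control replicate 1 or 3 (adjusted p = 0.0539 to 0.0749).

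PSMD14, the deubiquitinase of the lid, measured 7.85, 7.45 and 7.72 on the siNELF-A arrays, 6.66, 8.24 and 5.39 on siNELF-B, 6.38, 6.13 and 6.67 on siNELF-C, 7.22, 7.47 and 8.15 on siNELF-E, and 7.58, 7.60 and 8.10 on control. Its siNELF-C arrays were all below control, and all 13 of its probe sets were lower there. The change with siNELF-C was -1.36 ± 0.5 (SE), the most negative of any of the 39 genes in that knockdown, and did not pass (limma adjusted p = 0.125).

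PSMD13, a structural lid subunit, measured 5.44, 5.86 and 5.58 on the siNELF-A arrays, 4.98, 5.53 and 4.03 on siNELF-B, 5.10, 5.17 and 5.73 on siNELF-C, 5.80, 6.01 and 6.18 on siNELF-E, and 5.62, 5.62 and 5.62 on control. It lay below control on all siNELF-B arrays and above it on all siNELF-E arrays, and passed against control in neither (siNELF-B -0.77, adjusted p = 0.112; siNELF-E 0.38, adjusted p = 0.692).

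PSMD3, also a lid subunit, had positive values in 3 of the 4 knockdowns. It measured 9.36, 9.01 and 8.81 on the siNELF-A arrays, 9.30, 9.80 and 9.13 on siNELF-B, 9.23, 9.13 and 9.31 on siNELF-C, 9.46, 9.31 and 9.41 on siNELF-E, and 9.09, 9.02 and 9.08 on control. All siNELF-B, siNELF-C and siNELF-E arrays were above all control arrays, and the siNELF-A arrays were on both sides of them. Its changes were 0.34 ± 0.175 with siNELF-B (adjusted p = 0.204), 0.16 with siNELF-C and 0.33 with siNELF-E (adjusted p = 0.401), none called by limma. PSMD11, PSMD12 and PSMD6 had changes of -0.70, -0.69 and -0.46 with siNELF-C, and PSMD7 one of -0.51, none called.

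Among the base assembly chaperones, PSMD10 (gankyrin) had the most negative value of the 39 genes with siNELF-E. PSMD10 measured 6.22, 5.94 and 6.496 on the siNELF-A arrays, 5.61, 6.18 and 4.04 on siNELF-B, 5.63, 5.18 and 5.78 on siNELF-C, 4.72, 4.995 and 4.66 on siNELF-E, and 5.95, 5.94 and 6.25 on control. The siNELF-E arrays lay below every other array except siNELF-B replicate 3. The change with siNELF-E was -1.25 ± 0.401, a 2.38-fold lower level, and missed the threshold with all arrays in the fit (limma adjusted p = 0.0985). Without siNELF-B replicates 2 and 3, which enter only through the shared estimate of spread, it was called (adjusted p = 0.000785). PSMD5 had a change of -0.52 with siNELF-E and -0.67 with siNELF-B, and PSMD9 was within 0.20 of control in every knockdown; neither was called.

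The activators had 0 of 4 genes called. PSME4 (PA200), which caps the core in the nucleus, measured 7.02, 7.06 and 6.80 on the siNELF-A arrays, 7.26, 7.77 and 5.66 on siNELF-B, 7.44, 7.21 and 7.42 on siNELF-C, 7.75, 7.89 and 7.97 on siNELF-E, and 7.41, 7.66 and 7.70 on control. It lay below control on all siNELF-A arrays and above it on all siNELF-E arrays. Its change with siNELF-A was -0.63 ± 0.377 (limma adjusted p = 0.430), and without siNELF-B replicates 2 and 3 the same value was called (SE 0.119, adjusted p = 0.00467). PSME1, an interferon-inducible part of the 11S activator, measured 7.38, 7.26 and 6.51 on the siNELF-A arrays, 7.83, 7.80 and 6.85 on siNELF-B, 7.71, 7.58 and 7.54 on siNELF-C, 7.86, 7.63 and 7.60 on siNELF-E, and 7.78, 7.60 and 7.62 on control. Its siNELF-A arrays were all below control, by -0.62 ± 0.261 (adjusted p = 0.242), with replicate 3 lowest.

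PSME2, the partner of PSME1, measured 5.98, 6.17 and 6.98 on the siNELF-A arrays, 6.92, 6.23 and 6.66 on siNELF-B, 5.74, 6.65 and 5.86 on siNELF-C, 6.24, 5.86 and 6.51 on siNELF-E, and 6.43, 6.98 and 6.96 on control. All groups overlapped control, and no change passed. PSME3, a nuclear activator, had changes of 0.14, -0.42, -0.23 and 0.01 with siNELF-A, with siNELF-B, siNELF-C and siNELF-E, none called.

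In the mean of the 4 knockdowns against control, 0 of the 31 clusters were called lower by limma, against 4.46% of all clusters, and 7 had an unadjusted p below 0.05, where 23.6% of all clusters did. The median of the 31 was -0.35, against -0.08 over all clusters, and 29 of the 31 were negative (93.5%, against 58.7%). The lowest values were those of PSMD14 (-0.65, adjusted p = 0.349), PSMC3 (-0.60, adjusted p = 0.0602) and PSMD10 (-0.59, adjusted p = 0.273), and the highest were those of PSMD3 (0.20), PSMA8 and PSMD4.

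How far the proteasome genes stood below control depended on how the arrays were scaled. Median centring and 75th percentile centring shift all clusters of an array alike, so they leave the gap between proteasome genes and all clusters unchanged. With siNELF-B the 2 medians were -0.566 and -0.142 as deposited, and -0.099 and 0.325 after 75th percentile centring. The siNELF-A and siNELF-C arrays, siNELF-B replicates 1 and 3 and siNELF-E replicate 1 had an interquartile range below that of every control array. Their proteasome medians ran from -1.08 on siNELF-B replicate 3 to -0.02 on siNELF-A replicate 1. With each array's interquartile range entered as covariate, the median change of the 31 clusters was 0.08 with siNELF-B, -0.05 with siNELF-C, -0.07 with siNELF-E and 0.19 with siNELF-A, and the median of all clusters moved to between -0.01 and 0.02. The range differed between groups, so range and knockdown cannot be told apart with siNELF-A and siNELF-C. Within groups it varied most with siNELF-B (3.57, 4.02 and 3.12), so the adjustment leans on those uneven arrays. After quantile normalization, with medians of all clusters between 0.04 and 0.05, the median of the 31 was -0.15, -0.24, -0.06 and 0.13 for siNELF-B, siNELF-C, siNELF-E and siNELF-A. After quantile normalization PSMB6 was still called lower with siNELF-B and PSMC3 with siNELF-E. PSMB7 and PSMD8 were no longer called, PSMB1 and PSMD1 were newly called lower with siNELF-C, and PSMD3 was newly called higher with siNELF-B. PSMB7 was called with siNELF-B and siNELF-C on the deposited scale and in none of the 4 other scalings, while PSMC3 was called lower with siNELF-E in all 5. The PSMD8 call with siNELF-E was lost under quantile normalization (adjusted p = 0.116), median centring (0.0492, with a change of -0.55) and 75th percentile centring (0.142), and kept with the covariate. PSMD10 was called lower with siNELF-E under median centring, 75th percentile centring and the covariate.

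**Figure D4:**
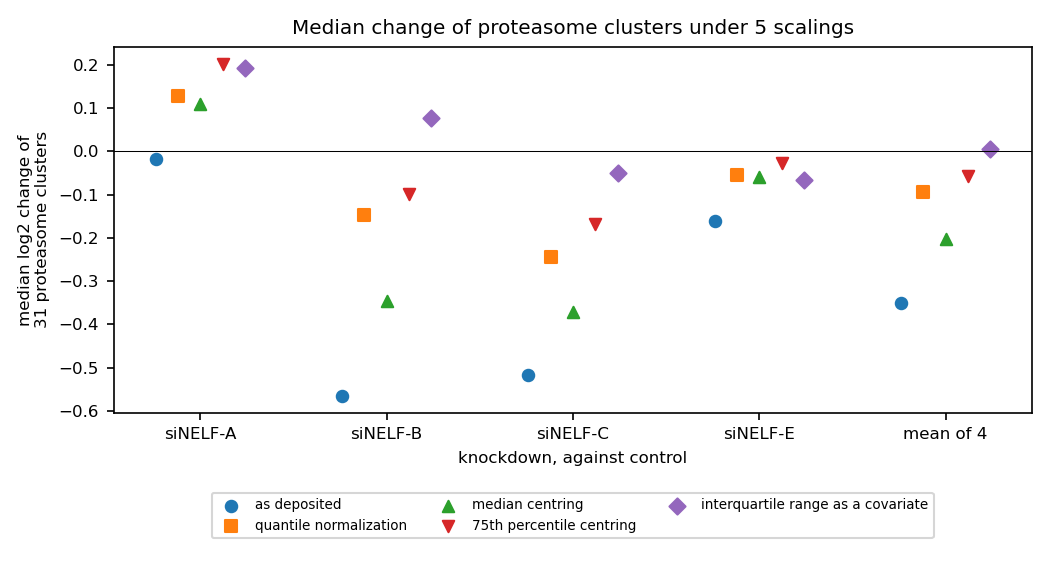
Median log2 change of the 31 proteasome clusters in each knockdown and in their mean, each against control, with the deposited values and under 4 other scalings. The siNELF-B median runs from -0.57 as deposited to 0.08 once the interquartile range is a covariate, and the siNELF-C median from -0.52 to -0.05. That range differed between the groups, so it cannot be told apart from the siNELF-C knockdown.

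The knockdowns were also set against each other. The control arrays do not enter these differences, but they do enter the shared estimate of spread and so the p-values. Of the 31 clusters, 3 were called in at least 1 of the 6 pairs, against 14.1% of all clusters. PSMB1 averaged 8.64 with siNELF-E and 7.42 with siNELF-C, a difference of 1.23 (± 0.321 SE, limma adjusted p = 0.0443; 3.59% of all clusters were called higher in that pair). PSMB6 averaged 7.40 with siNELF-C and 8.54 with siNELF-A (-1.15 ± 0.268, adjusted p = 0.0377; 1.66% of all clusters called lower). It averaged 6.94 with siNELF-B and 8.54 with siNELF-A (-1.60, adjusted p = 0.00717; 3.46% called lower), and 7.99 with siNELF-E and 6.94 with siNELF-B (1.05, adjusted p = 0.0337; 5.74% called higher). PSMB7 averaged 10.09 with siNELF-B and 10.70 with siNELF-A (-0.61, adjusted p = 0.049). Of the genes measured by probe sets, PSMD13 averaged 6.00 with siNELF-E and 4.85 with siNELF-B (1.15 ± 0.306, adjusted p = 0.0383; 6.23% of all such genes called higher). With 1 array left out at a time, the difference of PSMB6 between siNELF-B and siNELF-A was called in all 15 cases, and that between siNELF-E and siNELF-B was lost in 9. The differences of PSMB1, of PSMB6 between siNELF-C and siNELF-A and of PSMD13 were lost in 13 cases each and that of PSMB7 in 14 (adjusted p up to 0.188), and all of these were kept without siNELF-B replicate 2.

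Array by array, siNELF-E lay above siNELF-C on all 3 arrays for 22 of the 31 clusters (71.0%), against 23.8% of all clusters, and below it for 4 (12.9%, against 16% of all clusters): PSMD8, PSMD5, PSMD9 and PSMD10. SiNELF-C lay below siNELF-A on all arrays for 20 of the 31 (64.5%), against 18.2% of all clusters. SiNELF-E lay below siNELF-A for 8 (25.8%), against 14% of all clusters. Above siNELF-A on all arrays were PSME1 and PSME4 with siNELF-E (6.45% of the 31, against 16.4% of all clusters). With siNELF-C, PSME1, PSME4 and PSMD9 were above siNELF-A (9.68%, against 12.3%).

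Without siNELF-B replicates 2 and 3 the spread of repeats was smaller and more proteasome genes passed, as did more of all genes. The share of the 31 clusters called lower was then above that of all clusters with siNELF-C, near it with siNELF-E and below it with siNELF-A. It was above with siNELF-B too, where it rests on 1 array. With siNELF-C, 13 of the 31 clusters were called lower (14.8% of all clusters): PSMA1, PSMA2, PSMA3, PSMA5, PSMB1, PSMB3, PSMB6, PSMB7, PSMC2, PSMC3, PSMD1, PSMD11 and PSMD12. Of the 8 genes measured by probe sets, PSMA6, PSMC6 and PSMD14 joined them (20.1% of such genes). With siNELF-E, 3 were called lower, PSMC3, PSMD8 and PSMD10 (7.81% of all clusters), and with siNELF-A 1, PSME4 (8.97%). The siNELF-B group then held 1 array, assumed to vary like the other groups, and 15 of the 31 were called lower in it (17.8% of all clusters). None was called higher against control. PSMB1 with siNELF-C had an adjusted p of 0.00045, PSMB6 one of 0.000177 and PSMC3 one of 0.000263, and PSMC3 with siNELF-E had 8.01e-05 (limma).

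The exon-level probe sets showed whether a difference ran along a gene. Of the 539 probe sets of the 39 genes, 0 were called in any of the 4 knockdowns by limma, against 0.618%, 0.164%, 1.15% and 1.6% of all 287329 probe sets with siNELF-A, siNELF-B, siNELF-C and with siNELF-E. Lower than control were 86.5% of them with siNELF-C, 85.3% with siNELF-B, 64.2% with siNELF-A and 64.0% with siNELF-E. The shares of all probe sets were 59.0%, 62.9%, 57.3% and 53.1%. For the 502 that reached the 25th percentile of probe set means, the shares were 88.4%, 87.8%, 65.1% and 65.5% in that order. Of all probe sets that reached it, 62.3%, 67.5%, 60.4% and 54.2% were lower. Probe sets of one gene share its RNA and are not replicates.

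PSMC3 was lower with siNELF-E on 16 of 16 probe sets, with a median of -0.94, and PSMD2 on 23 of 23, with a median of -0.40. PSMD3 was lower with siNELF-E on 0 of 18 probe sets (median 0.33). PSMB1 was lower with siNELF-C on 9 of 9 probe sets (median -0.96) and with siNELF-E on 1 of 9. PSME4, the gene with the most probe sets, was lower on 52 of 53 with siNELF-A, 49 with siNELF-B and 40 with siNELF-C, and on 3 with siNELF-E. PSMD11, a lid subunit, was lower on all 14 probe sets in all 4 knockdowns, with medians between -0.72 with siNELF-C and -0.39 with siNELF-E. PSMD10 was lower with siNELF-E on 8 of 9 probe sets (median -1.23).

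**Figure D5:**
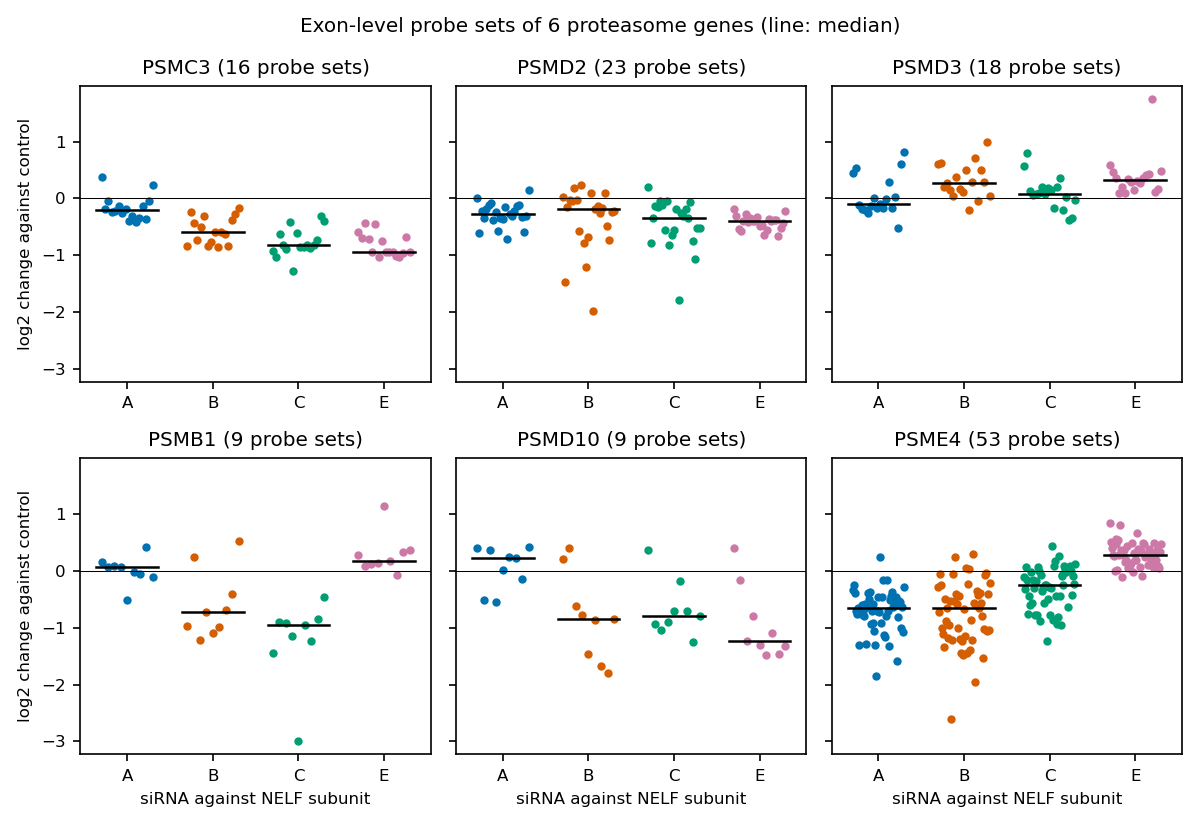
Log2 change of each exon-level probe set (points) of 6 proteasome genes against control, by targeted NELF subunit, with the median (line). PSMC3 and PSMD2 points lie below 0 with siNELF-E on every probe set, and PSMD3 points above 0. PSME4 points lie mostly below 0 with siNELF-A and mostly above with siNELF-E.

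How much a probe set moved beyond the rest of its gene, its exon usage, was tested with limma's diffSplice on 498 probe sets of 36 of the genes, and 6 probe sets passed at the same thresholds. Against the shares of all 153907 probe sets called in the same direction, these were 1 lower with siNELF-A (0.118%), 2 lower and 1 higher with siNELF-B (0.454% and 0.396%), 2 lower with siNELF-C (0.267%) and 1 higher with siNELF-E (0.0721%). In PSMC2, an ATPase, a probe set measured 5.34, 3.89 and 1.59 on the siNELF-C arrays, against 6.16, 7.68 and 7.52 on the control arrays, lower by more than the rest of the gene (relative log2 change -2.68, adjusted p = 0.0326). In PSMD1, a scaffold, a probe set measured 2.67, 2.21 and 2.60 on the siNELF-C arrays, against 4.61, 5.13 and 6.30 (relative change -1.89, adjusted p = 0.0261). Those siNELF-C values lie below the 25th percentile of probe set means (2.93). Both probe sets also varied elsewhere: on the siNELF-B arrays that of PSMC2 measured 4.53, 7.41 and 1.82, and that of PSMD1 2.27, 6.22 and 2.02.

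In PSMD8, a probe set was higher relative to its gene with siNELF-B (1.27, adjusted p = 0.0331), with siNELF-E (1.43, adjusted p = 0.0317) and in the mean of the 4 knockdowns (1.26, adjusted p = 0.00444; 0.221% of all probe sets called higher). It measured 4.71, 4.25 and 4.33 on the siNELF-E arrays, and 3.96, 4.51 and 2.81 on the control arrays, so the groups overlapped and control replicate 3 was low. The others were a probe set of PSMA4 with siNELF-A (-1.66, adjusted p = 0.0326) and, with siNELF-B, probe sets of PSMC4 (-1.62, adjusted p = 0.0454) and PSMD2 (-1.68, adjusted p = 0.041), on which siNELF-B replicate 2 measured close to control.

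Genes that work with the proteasome were read in the same fit, in which 2.83% of all clusters were called lower with siNELF-A, 4.19% with siNELF-B, 5.3% with siNELF-C and 4.04% with siNELF-E. Of the immunoproteasome genes, which replace the active subunits, PSMB10 was not called. PSMB8 fell with siNELF-A (-1.83, limma adjusted p = 0.0187) and siNELF-B (-2.14, adjusted p = 0.0145). It also lay below every control array with siNELF-C (-0.955) and siNELF-E (-1.301), without a call. In the mean of the 4 knockdowns PSMB8 was called lower (-1.556). Of 14 assembly and associated factors measured, 1 was called, ADRM1, a ubiquitin receptor of the base, which fell with siNELF-C (8.70, 8.55 and 8.56, against 9.35, 9.07 and 9.16 in control; adjusted p = 0.0313). Their median was -0.52 with siNELF-C, -0.47 with siNELF-B, -0.13 with siNELF-A and -0.11 with siNELF-E. Of 8 genes of the NFE2L1 pathway 0 were called in any knockdown; NFE2L1 itself had changes of -0.72 with siNELF-A (adjusted p = 0.0851), -0.51 with siNELF-B, -0.22 with siNELF-C and -0.29 with siNELF-E.

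Of 6 genes for ubiquitin and its activation, the ubiquitin gene UBB fell with siNELF-E (8.89, 9.09 and 9.01, against 9.86, 9.77 and 10.03 in control; -0.89 ± 0.148, adjusted p = 0.00291) and no other was called. Of 11 genes that deliver substrates, FAF2, an adaptor of the segregase VCP, fell with siNELF-C (-1.10 ± 0.301, adjusted p = 0.0469), and no other was called.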

How the data were processed

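Gene-level and exon-level values of 15 arrays (5 groups of 3) were used. The deposited values are on a log2 scale; per the labels, the authors summarised core exons on hg18 by robust multi-array averaging in ArrayAssist, whose version is not given in the sources used here. They were used as deposited, 22011 clusters and 287329 probe sets, and no pair of columns was identical. Symbols are those of the platform annotation, updated through a RefSeq gene table, and only features with 1 symbol were named. One limma model (R 4.3.3, limma 3.58.1) with a mean per group was fitted to all arrays and all features, with Benjamini-Hochberg adjustment over the whole table; the call rule is given above. The same model was fitted to the per-symbol medians of probe sets. For exon usage (limma's diffSplice) a probe set had to reach the 25th percentile of probe set means, and its gene the 40th percentile of gene means and a minimum of 3 probe sets. The scripts were tested on simulated data first. Alternatives changed scaling, filter, spread, block and arrays. The members and gene lists were chosen with earlier results of these data known. Array values are given for genes called between knockdowns or in 2 knockdowns, the 3 extremes in each direction of the mean contrast, the active subunits, PSME1 and PSME2; PSMA3, PSMD8 and PSME4 and the genes named from other lists, beyond the immunoproteasome and NFE2L1, were added after their values were seen.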

Additional observations from a re-analysis of the deposited data

Results flagged for a closer look

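The changes of 4 proteasome genes differed between knockdowns by limma's test of the difference itself, adjusted over all features. Of the 31 clusters, 3 were called in at least 1 pair, against 14.1% of all clusters, so the count does not set the proteasome genes apart. PSMB6 was lower with siNELF-B than with siNELF-A by -1.60 (log2 means 6.94 and 8.54, adjusted p = 0.00717) and lower with siNELF-C than with siNELF-A by -1.15 (adjusted p = 0.0377). PSMB6 was higher with siNELF-E than with siNELF-B by 1.05 (adjusted p = 0.0337). PSMB1 was higher with siNELF-E than with siNELF-C by 1.23 (adjusted p = 0.0443), in 3 of 3 arrays. PSMB7 was lower with siNELF-B than with siNELF-A by -0.61 (adjusted p = 0.049), and PSMD13 was higher with siNELF-E than with siNELF-B by 1.15 (adjusted p = 0.0383). The 3 differences of PSMB6 rest on a single probe set, and the 4 differences that involve siNELF-B rest on arrays that were spread widely. Only that of PSMB6 between siNELF-B and siNELF-A was called whichever of the 15 arrays was left out. Each of the others was lost in 9 to 14 of the 15 cases.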

How the results depend on the processing

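Counts of calls moved with most choices, and medians with the scaling. The share of all features called is not given for each setting, so these counts alone do not set the proteasome genes apart. More of all clusters also passed once siNELF-B replicates 2 and 3 were left out, as given above. A higher count in a setting with less spread therefore need not be particular to the proteasome genes. With all 3 siNELF-B arrays in the fit, counts among the 31 clusters were 0 with siNELF-A, 2 with siNELF-B, 1 with siNELF-C, 2 with siNELF-E, 0 in the mean of the 4 knockdowns and 3 in the pairs of knockdowns. With siNELF-B as replicate 1 only they were 1, 15 and 13 with siNELF-A, siNELF-B and siNELF-C and 21 in the pairs, and the genes measured by probe sets gave 21 calls over the 11 contrasts, an alternative added after the data were seen, against 1 with all arrays and 2 with the mean of probe sets in place of the median. Array weights, whose estimation stopped before convergence, gave 1, 16, 14 and 23 in the same order. Fitting only the groups compared gave 1, 0, 13 and 14 in that order. With the replicate block, siNELF-B had 1 call, siNELF-C 0 and the pairs 1. The block also ended the PSMD13 difference (adjusted p = 0.0564, an alternative added later). The replicate numbers do not pair the samples: same-numbered arrays of different groups had correlations of -0.297 to 0.203 in their deviations, and 2 of 15 arrays correlated best with their own number. Quantile normalization gave 2 with siNELF-C, 1 with siNELF-E and 9 in the pairs, with medians of -0.147 with siNELF-B and -0.245 with siNELF-C. Median centring gave 1 with siNELF-B, 4 with siNELF-C and 7 in the pairs. Centring on the 75th percentile gave 2 with siNELF-C and 9 in the pairs, with medians of -0.099, -0.167 and -0.057 with siNELF-B, siNELF-C and in the mean, where the median of all clusters was 0.325, 0.274 and 0.214 (log2). The interquartile range as a covariate gave 2 calls with siNELF-A, both higher (PSMB5 and PSMB6), 1 higher with siNELF-B (PSMD3), 0 with siNELF-C and 10 in the pairs, with medians of 0.077, -0.05 and 0.006 with siNELF-B, siNELF-C and in the mean. That covariate itself differed between the groups, as given above. Keeping only clusters above the 40th percentile gave 5 with siNELF-C and 1 in the mean, and the exon-level median gave 0 with siNELF-C, 1 in the mean and 1 in the pairs. The calls of exon usage among proteasome probe sets were 15 after quantile normalization and 40 with siNELF-B as replicate 1 only, both holding all 6. Leaving out 1 array at a time, counts ran from 0 to 1 with siNELF-A, 0 to 22 with siNELF-B, 0 to 11 with siNELF-C, 0 to 3 with siNELF-E, 0 to 3 in the mean and 1 to 22 in the pairs; the highest came without siNELF-B replicate 2 or 3. Medians ran from -0.087 to 0.014 with siNELF-A, -0.853 to -0.207 with siNELF-B, -0.579 to -0.466 with siNELF-C, -0.214 to -0.145 with siNELF-E and -0.426 to -0.282 in the mean. The cause of these shifts was not tested. No called value of a single gene changed sign under any alternative. Signal near background limits PSMA8.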

Other observations

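Other multi-subunit assemblies were measured on the same arrays. The COP9 signalosome, whose subunits are related to those of the proteasome lid and which removes NEDD8 from cullins, had all 9 genes measured. Its median log2 change was -0.95 with siNELF-B and -0.62 with siNELF-C, and -0.12 with siNELF-A and -0.07 with siNELF-E. Called lower by limma were COPS6 with siNELF-B (-0.90, adjusted p = 0.0431) and COPS7A with siNELF-B (-1.02, adjusted p = 0.0351) and siNELF-C (-0.88, adjusted p = 0.0399). COPS7A measured 6.26, 5.92 and 6.20 with siNELF-C, against 7.22, 6.96 and 6.84 in control.

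The chaperonin CCT, a ring that folds actin and tubulin, had 7 genes measured, with a median of -0.51 with siNELF-B, -0.41 with siNELF-C, -0.28 with siNELF-E and 0.19 with siNELF-A. CCT7 was called lower with siNELF-B (-0.67, adjusted p = 0.0334) and siNELF-C (-0.70, adjusted p = 0.0175, both limma), and no other CCT gene was called. CCT7 measured 9.18, 8.91 and 9.07 with siNELF-C, against 9.65, 9.73 and 9.88 in control. No difference between these lists and the proteasome genes was tested. PSME3IP1, which encodes a partner of the activator PSME3 and is no subunit, was called lower with siNELF-B (-0.81, adjusted p = 0.0473).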
